A study of Mus musculus with 48 samples.

Results

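Myelin and mature oligodendrocyte genes were described here by 9 members, Mbp, Mobp, Mog, Mag, Cnp, Cldn11, Ugt8a, Opalin and Ermn, taken by name from the 37620 genes of the gene table. They were represented by 66 of the 247845 rows of the exon table, and all 9 passed the filter on low values that left 15350 genes. RNA was sequenced from nucleus accumbens shell, part of the ventral striatum that takes part in reward, in 48 mice of the heterogeneous stock-collaborative cross (HS-CC), an outbred stock. The mice came from generation 4 of selection for ethanol preference: 12 females and 12 males of the High line and 12 females and 12 males of the Low line, with 1 poly(A) RNA library per mouse from tissue taken by laser microdissection. No mouse was labelled as unselected or as treated, and the labels held no age. No replicate lines were named, so a difference between lines cannot be told apart from drift. Nothing in the labels gave families or cages, and each p-value below measures variation among these animals as if they were independent.

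Oligodendrocytes wrap axons in compact myelin, a stack of membranes rich in lipid that speeds conduction, and mature cells transcribe the myelin genes strongly and together under the transcription factors Sox10 and Myrf. The shell is grey matter that is crossed by thin myelinated fibre bundles and lies beside the anterior commissure. Mbp (myelin basic protein) and Mobp (myelin-associated oligodendrocyte basic protein) are basic proteins of compact myelin. Mog (myelin oligodendrocyte glycoprotein) sits on the outer surface of the sheath, Mag (myelin-associated glycoprotein) faces the axon, Cnp (2',3'-cyclic nucleotide 3'-phosphodiesterase) keeps cytoplasmic channels of the sheath open, and Cldn11 (claudin 11) forms its tight junctions. Ugt8a makes galactosylceramide, the leading myelin glycolipid. Opalin is a membrane glycoprotein and Ermn (ermin) an actin-binding cytoskeletal protein, both of mature oligodendrocytes.

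Promoter sequence is shown for the members whose upstream window held at least a pair of matches to the letters searched. RefSeq promoters (GRCm38.p6) were on hand for 8 of the 9 members. In the 250 bases before each annotated start, ACAAAG or ACAATG (core letters for SOX factors), CAGCTG or CATCTG (E-box letters, read by OLIG factors) and CTGGCAC or CTGGTAC (letters for MYRF) were searched on both strands. No match overlapped another in the windows printed. Capitals mark every match, the strand is that of the gene, and the sequences run 5′ to 3′.
Mobp, chr9:120149492-120149741, plus strand: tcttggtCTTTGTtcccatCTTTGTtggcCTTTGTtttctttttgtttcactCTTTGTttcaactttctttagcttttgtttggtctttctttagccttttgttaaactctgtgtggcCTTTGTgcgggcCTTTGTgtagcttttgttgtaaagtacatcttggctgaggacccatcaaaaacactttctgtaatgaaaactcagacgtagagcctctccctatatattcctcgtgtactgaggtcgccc
Mag, chr7:30914864-30915113, minus strand: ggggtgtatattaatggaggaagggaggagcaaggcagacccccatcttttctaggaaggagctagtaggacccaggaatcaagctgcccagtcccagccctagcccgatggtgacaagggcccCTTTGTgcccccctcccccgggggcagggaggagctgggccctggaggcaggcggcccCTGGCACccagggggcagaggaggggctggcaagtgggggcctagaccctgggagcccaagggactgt
Cnp, chr11:100574689-100574938, plus strand: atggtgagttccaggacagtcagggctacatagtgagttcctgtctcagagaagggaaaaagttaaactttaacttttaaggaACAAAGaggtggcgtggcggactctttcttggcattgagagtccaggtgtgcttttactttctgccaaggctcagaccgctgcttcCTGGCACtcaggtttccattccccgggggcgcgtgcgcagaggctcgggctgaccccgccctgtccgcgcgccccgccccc
Opalin, chr19:41077114-41077363, minus strand: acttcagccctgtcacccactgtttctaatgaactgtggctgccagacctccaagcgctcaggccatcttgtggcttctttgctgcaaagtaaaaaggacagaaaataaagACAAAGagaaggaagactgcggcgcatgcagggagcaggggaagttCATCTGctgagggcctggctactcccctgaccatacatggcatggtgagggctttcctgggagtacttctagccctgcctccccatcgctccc

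The Mobp window held 6 matches to the SOX letters, all read as CTTTGT on the gene's strand, between 243 and 120 bases before the start. Mag, for which the table holds several starts, had a SOX match 126 bases and a MYRF match 68 bases before the start shown, and Cnp had a SOX match 167 bases and a MYRF match 81 bases before its start. Opalin had a SOX match 139 bases and an E-box match 93 bases before its start. Over the members with a promoter entry, 5 of 8 held the SOX letters, 3 of 8 (Cnp, Mag, Mog) the MYRF letters and 1 of 8 (Opalin) the E-box letters. The shares over all 32851 promoters of the same length were 25.2% for the SOX letters, 5.93% for the MYRF letters and 25.5% for the E-box letters. These shares count single promoters, whereas a member was counted if any of its promoters matched. A gene with several promoters, such as Mag, has more than 1 occasion to match, so the member counts and the shares are not in like units. The windows of Cldn11 and Ugt8a held no match. The matches are a description of letters and not of binding, and their part in the variation that the members share between mice was not tested.

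Values are given as normalised read counts, the authors' read counts scaled to near-equal totals and rounded to whole numbers. The totals ran from 13579559 to 14561911 per library, and the number of genes above 0 from 19708 to 20725 in High and 20125 to 20888 in Low mice. The read depth before scaling was not derived here, and precision was taken from the spread between mice alone. Striatal identity was clear, with summed counts of 12 spiny neuron genes of 104864 to 152884 in High and 103797 to 157936 in Low mice. Summed counts of 7 cortical pyramidal neuron genes ran from 117 to 2715 in High and 147 to 5223 in Low mice, so some libraries held more cortical RNA than others. High M replicate 1 had the lowest median correlation with the other libraries, 0.967 against 0.979 at the top.

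Levels per kilobase of annotated exon (GENCODE M21) spanned a wide range. Mbp was highest at 829 ± 193 normalised counts per kilobase (SD, n = 48), followed by Cnp at 539 ± 81.6, Mobp at 301 ± 79.2, Cldn11 at 272 ± 61.8, Mag at 176 ± 43.1 and Mog at 135 ± 35.2. Opalin (37.8 ± 12.0), Ermn (37.1 ± 11.6) and Ugt8a (36.3 ± 11.5) formed the bottom of the order. Mbp exceeded Cnp and Cnp exceeded Mobp in 48 of 48 mice, Mobp exceeded Cldn11 in 36, Cldn11 exceeded Mag in 48, Mag exceeded Mog in 47 and Mog exceeded Opalin in 48. The Cnp level includes an exon over Dnajc7 that is described below. Cnp averaged 1963 counts with that exon and 1583.5 without it, and its place in the order without the exon was not derived. Opalin was above Ermn in 26 mice and Ermn above Ugt8a in 25, so the last 3 did not separate beyond their spread. With the length of the longest coding transcript in place of all exons, Mag (294) stood above Cldn11 (272) and Ugt8a (43.8) above Ermn (37.1).

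Values per mouse overlapped between all 4 groups for every member. Mbp, on chromosome 18, had a lowest, median and highest count of 3965, 6400.5 and 9712 in High females and 3121, 6641.5 and 8180 in High males. In Low mice it had 6214, 7968.5 and 9656 in females and 4906, 7056 and 8892 in males. The lowest Low female thus stood well above the lowest mouse of each High group, while the highest mice of the 4 groups lay closer together.

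Ugt8a, on chromosome 3, counted 88, 135.5 and 290 (lowest, median and highest) in High females and 83, 135.5 and 218 in High males. Low females had 111, 208.5 and 294 and Low males 115, 146.5 and 215. Low females stood highest by median, and the other 3 groups lay close together.

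Opalin, on chromosome 19, counted 43, 91 and 139 in High females and 59, 91 and 178 in High males. Low females had 90, 122 and 170 and Low males 73, 135.5 and 187. Of the 24 High mice, 20 were below the Low median, more than for any other member.

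Ermn, on chromosome 2, counted 47, 139.5 and 240 in High females and 52, 141.5 and 161 in High males. Low females had 101, 157.5 and 221 and Low males 74, 111 and 176. Here 11 of 24 High mice were below the Low median, and the Low males held the lowest group median.

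For the remaining members the genders are given together; within each gender the Low median was above the High median, except for Cldn11 in males (508 in High and 497.5 in Low males). Mobp, on chromosome 9, ran from 929 to 3314 with a median of 1742.5 in High mice and from 1521 to 3144 with a median of 2185.5 in Low mice. Mag, on chromosome 7, ran from 302 to 943 (median 654) in High and from 453 to 1017 (median 779) in Low mice. Cldn11, on chromosome 3, ran from 259 to 641 (median 500.5) in High and from 336 to 753 (median 561) in Low mice. The lowest value lay in a High mouse for each of them. Mog, on chromosome 17, ran from 113 to 328 (median 207) in High and from 144 to 350 (median 250.5) in Low mice. Cnp, on chromosome 11, ran from 1332 to 2405 (median 1858.5) in High and from 1564 to 2544 (median 2069.5) in Low mice. Between 15 and 19 of the 24 High mice were below the Low median for these members, and 17 for Mbp and for Ugt8a.

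**Figure D1:**
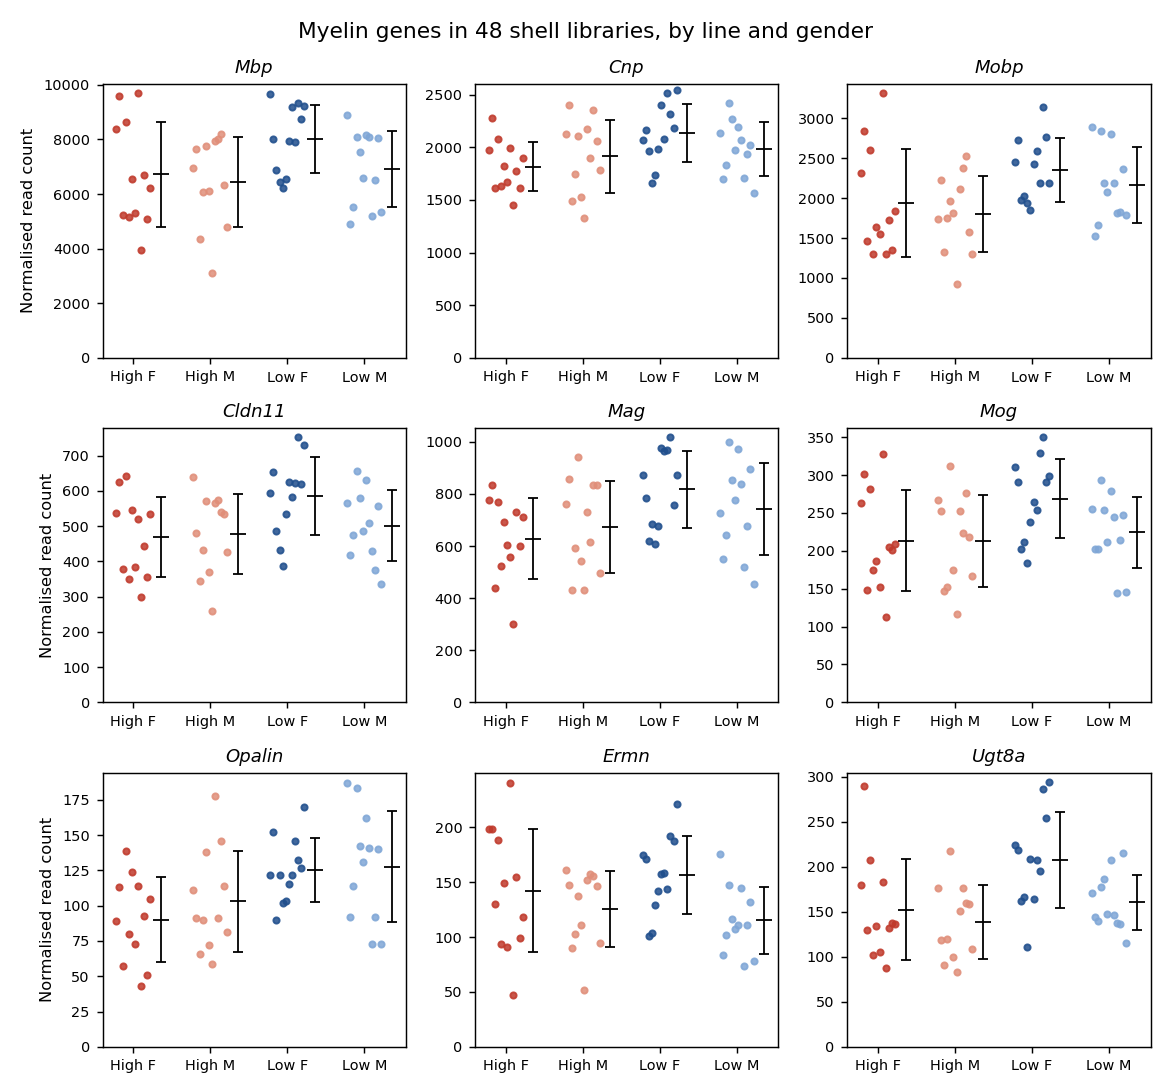
Normalised read count of each myelin gene (vertical axes) in the 12 mice of each line and gender group, with the group mean and SD as black bars. All groups overlap, and the lowest mice are High females or High males, such as 3121 for Mbp and 47 for Ermn.

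Between the lines, no member passed the test. High minus Low, averaged over the genders, was tested with limma on log2(normalised count + 0.5 ppm of the mean total, which is 7.03 counts), with p-values adjusted by Benjamini-Hochberg over 15350 genes and a call at an adjusted p under 0.05. Of all genes, 0.28% were called. None of the 9 members was called, 9 of 9 had a lower mean in High mice, and their median log2 difference was -0.23 beside -0.0028 over all genes tested. An unadjusted p under 0.05 was found for 8 of 9 members and for 9.07% of all genes. Since the members vary together between mice, these 8 are not 8 separate observations. In bulk tissue, fewer oligodendrocytes and less RNA per oligodendrocyte cannot be told apart. With 1 library per mouse, neither can be told apart from the share of myelinated fibre bundles in the piece dissected.

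Opalin had the largest difference, with 96.6 ± 33.1 counts in High and 126 ± 31.4 in Low mice (SD, n = 24 each). Its log2 difference was -0.40 ± 0.12 (SE; limma p = 0.00147, adjusted p = 0.157). The glycolipid enzyme Ugt8a averaged 145 ± 48.5 counts in High and 184 ± 49.1 in Low mice, a log2 difference of -0.35 ± 0.11 (limma adjusted p = 0.202). Both differences were smaller than the SD between mice of a line. For the basic protein Mobp, High mice averaged 1869 ± 572 and Low mice 2258 ± 441 counts, with a log2 difference of -0.31 ± 0.10 (limma adjusted p = 0.245). Mag (-0.27), Mog (-0.23), Mbp (-0.21), Cldn11 (-0.21) and Cnp (-0.15) followed on the log2 scale. Ermn was nearest to 0, at 134 ± 46.4 counts in High and 136 ± 38.7 in Low mice, a log2 difference of -0.05 with a 95% interval from -0.31 to 0.20.

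Within females, 9 of 9 members were lower in High mice by log2 differences between -0.21 (Ermn) and -0.50 (Opalin). Among all genes 0.0261% were called in females, and no member was (smallest limma adjusted p = 0.680, for Opalin and Ugt8a, with 8 of 9 members and 4.68% of all genes at an unadjusted p under 0.05). Within males, 8 of 9 were lower, between -0.06 (Cnp) and -0.29 (Opalin), and Ermn was at 0.10. In that comparison 0 members and 0% of all genes were called by limma, with 0 of 9 members and 6.93% of genes at an unadjusted p under 0.05. The difference between the genders was itself tested, and 0 members and 0% of all genes were called (limma adjusted p = 0.9998 for every member). For this difference 0 of 9 members and 2.397% of all genes had an unadjusted p under 0.05. Its 95% intervals were wide, from -0.82 to 0.20 for Ermn and from -0.46 to 0.36 for Mobp, so a larger line difference in females was neither shown nor limited to a small size.

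Averaged over the lines, 8 of 9 members had higher means in females than in males, with a median log2 difference of 0.11. Over all genes the median was -0.0036, and 52.3% were lower in females. An unadjusted limma p under 0.05 was found for 2 of 9 members and 4.21% of all genes. Members that vary together are not separate observations here either. Of all genes 0.0782% were called for gender and no member was. Ermn averaged 150 ± 46.5 counts in females and 120 ± 32.3 in males (SD, n = 24 each), a log2 difference of 0.27 ± 0.13 (limma adjusted p = 0.982). Ugt8a, at 180 ± 60.5 in females and 149 ± 37.3 in males, differed by 0.23 ± 0.11 (limma adjusted p = 0.982). Opalin was the exception in sign, with 108 ± 31.7 counts in females and 115 ± 38.8 in males and a log2 difference of -0.08 ± 0.12 (limma adjusted p = 0.982).

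**Figure D2:**
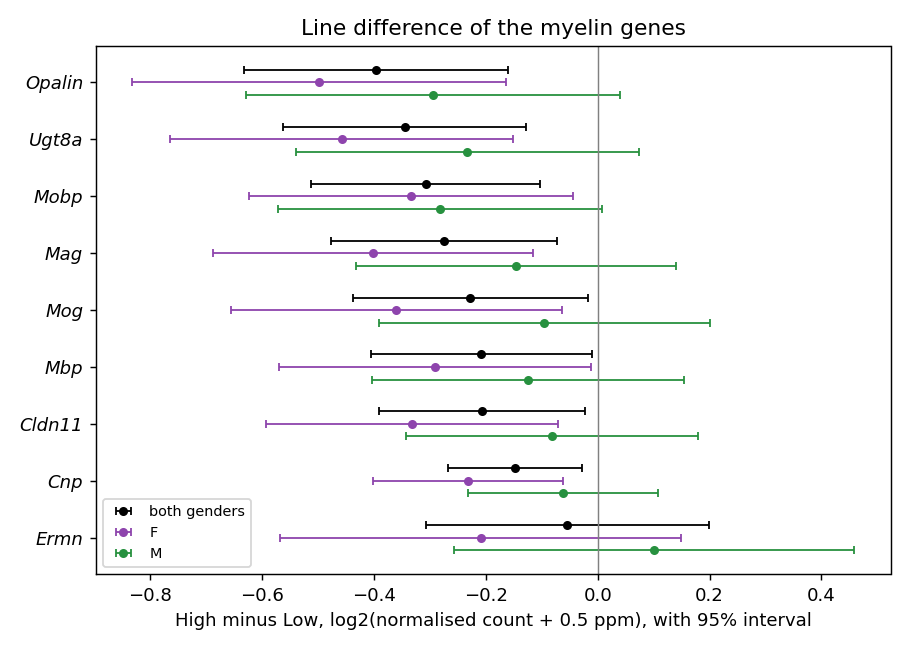
High minus Low difference of each myelin gene on the log2(normalised count + 0.5 ppm) scale (horizontal axis), with 95% intervals, for the average over genders, for F and for M. The averages lie from -0.40 for Opalin to -0.05 for Ermn, and the intervals of M all include 0.

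Mice of a group differed more in most members than in the typical gene, with the deposited value of Cnp as the exception. Within groups, the SD of the log2 values lay between 0.33 (Cldn11) and 0.45 (Ermn) for 8 members, beyond 72.6% to 87.9% of all tested genes, whose median SD was 0.23. The deposited Cnp value had an SD of 0.21, at the 43.4th percentile. Without the exon over Dnajc7 that is described below, Cnp had an SD of 0.28, at the 62.3rd percentile, and was no exception. The highest over the lowest mouse gave ratios from 1.91 for Cnp to 5.11 for Ermn. Deviations from the group median were larger in High mice for 9 of 9 members, for example 0.40 in High against 0.26 in Low mice for Ermn. The members vary together, so these 9 are not 9 separate observations. The share of all genes with larger deviations in High mice was not derived. No member was called for this spread by limma (adjusted p = 0.998 for each, 0 of 9 with an unadjusted p under 0.05), and 0.0586% of all genes were.

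After removal of group means, every pair of members correlated over the 48 mice. Pearson's r ran from 0.66 for Mobp and Mag to 0.93 for Mbp and Mobp, with a median of 0.81, and Spearman's rho from 0.68 to 0.93. By permutation of mice within groups, all 36 of 36 pairs reached p = 1e-05 for r and for rho, the smallest that 100000 permutations can give, and 1e-05 after Benjamini-Hochberg adjustment over the pairs. Without the 2 mice farthest from the median of the first gene of a pair, r was 0.66 to 0.92. The first principal component held 83.2% of the variance of the 9 standardised genes and the second 4.98%. The median r over pairs was 0.85 within High females, 0.83 within High males, 0.72 within Low females and 0.85 within Low males. No batch was given in the labels. The mean of the members correlated with the sample number at r = -0.05 (rho = -0.06) and with the number of genes above 0 at r = -0.19 (rho = -0.16).

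Mbp (r = 0.94), Mog (0.94) and Cldn11 (0.93) followed the mean of the other 8 members most closely. Ugt8a (0.84), Mobp (0.84), Opalin (0.85) and Mag (0.85) followed it least. The slope of a member on the log2 mean of the other 8 was 1.26 for Ermn and 0.55 for Cnp, and 0.92 to 1.09 for the other 7. Ermn thus varied over a wider range than the rest and the deposited Cnp value over a narrower one. That Cnp value includes the exon over Dnajc7 described below, and the slope without that exon was not derived.

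A common level per mouse was taken as the mean of the 9 log2 values, each relative to its gene's mean. It ran from -0.90 to 0.42 in High mice with a mean of -0.12 ± 0.37 (SD, n = 24) and from -0.46 to 0.54 in Low mice with a mean of 0.12 ± 0.28 (SD, n = 24). The lowest mice were High M replicate 7 (-0.90), High F replicate 9 (-0.88) and High M replicate 3 (-0.58), each among the 6 lowest mice for 9 of 9 members. The highest were Low F replicate 10 (0.54) and Low F replicate 12 (0.50). In 16 mice all 9 members were below their median, 11 High and 5 Low, and in 11 mice none was, 2 High and 9 Low. The 12 mice with the lowest level were 9 High and 3 Low, and the 12 with the highest were 3 High and 9 Low.

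**Figure D3:**
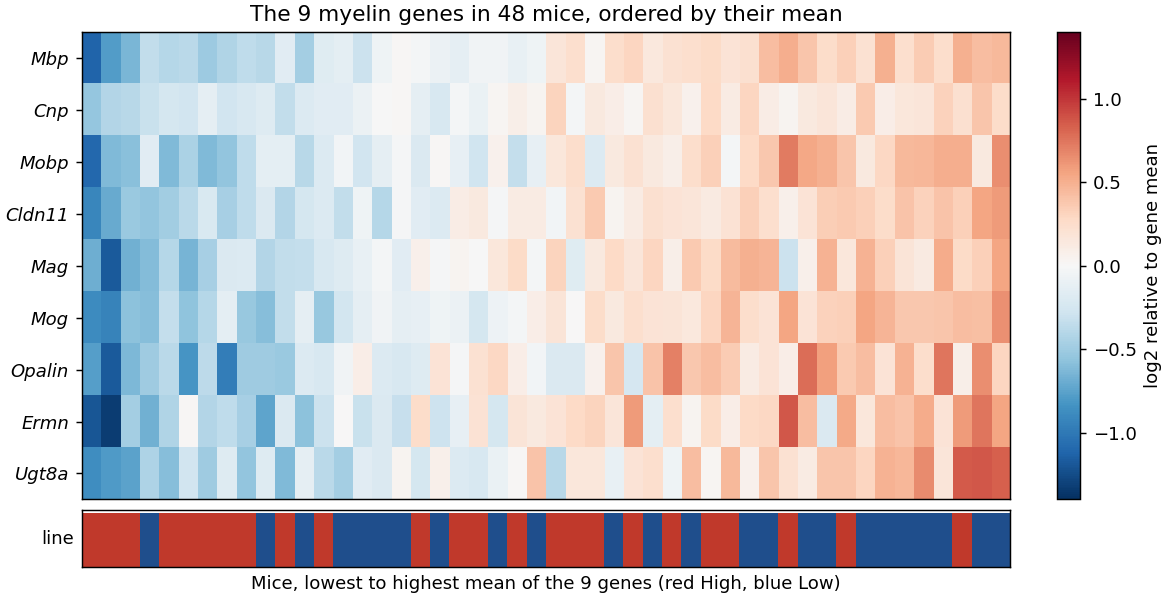
Each column is a mouse, ordered from the lowest to the highest mean of the 9 myelin genes, and each row a gene; colour gives log2 of the normalised count relative to the gene's mean, and the strip below marks the line. The genes change colour together across the mice, from -0.90 on average in the lowest mouse to 0.54 in the highest.

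Ermn was the only member called between the lines at equal level of the other members. In a comparison added after the data were seen, High minus Low was tested with limma with the mean log2 value of the other members as a covariate. Among all genes, 0.43% were called in this comparison. Ermn was called at a log2 difference of 0.28 ± 0.07 (SE; limma p = 0.00011, adjusted p = 0.0352), rank 48 of 15350 by p, and was higher in High mice at equal level of the other members. As a ratio, log2 Ermn less the mean of the other 8 was -0.50 to 0.63 with a mean of 0.10 ± 0.25 in High mice (SD, n = 24), against -0.58 to 0.28 with a mean of -0.10 ± 0.22 in Low mice (SD, n = 24). The lines overlapped, and 21 of 24 High mice were above the Low median. By group the mean ratio was 0.17 ± 0.31 in High females, 0.04 ± 0.17 in High males, 0.02 ± 0.18 in Low females and -0.23 ± 0.19 in Low males (SD, n = 12 each), so it was higher in High than in Low mice within each gender. In a limma fit of the ratio the line difference of Ermn was 0.21 ± 0.08 (SE), smaller than with the covariate. Opalin, treated the same way, was at -0.18 ± 0.08 (SE), so Ermn did not stand alone in the size of its departure.

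The Ermn call lies close to the threshold. With each library left out in turn, the log2 difference stayed between 0.25 and 0.30, and the limma adjusted p ran from 0.0238 to 0.0675. It was at or above 0.05 in 10 of 48 cases. Those were 0.0610, 0.0505, 0.0675 and 0.0546 without High F replicates 1, 6, 8 and 10, and 0.0531, 0.0518 and 0.0569 without High M replicates 1, 2 and 9. The others were 0.0665 and 0.0545 without Low F replicates 3 and 4, and 0.0574 without Low M replicate 9. No other member was called at equal level of the rest: Opalin stood at -0.16 ± 0.07 (limma adjusted p = 0.314), Ugt8a at -0.12 (0.397) and the other 6 between -0.09 and 0.04.

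In the same comparison for gender, 0.0912% of all genes were called and no member was. Opalin was at -0.22 ± 0.07 in females minus males (limma adjusted p = 0.715) and Ermn at 0.17 ± 0.06 (limma adjusted p = 0.820), on the log2 scale. The last exon of Ermn shares 237 bases with Galnt5, a gene on the opposite strand, and the strand setting of the counting was not given. Galnt5 averaged 18.1 ± 8.1 counts in High and 20.3 ± 7.0 in Low mice. Over the 48 mice its r was 0.77 with Ermn and 0.71 with the other 8 members. Reads of Ermn and Galnt5 cannot be told apart in the shared stretch, and the part of this stretch in the Ermn result was not tested.

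**Figure D4:**
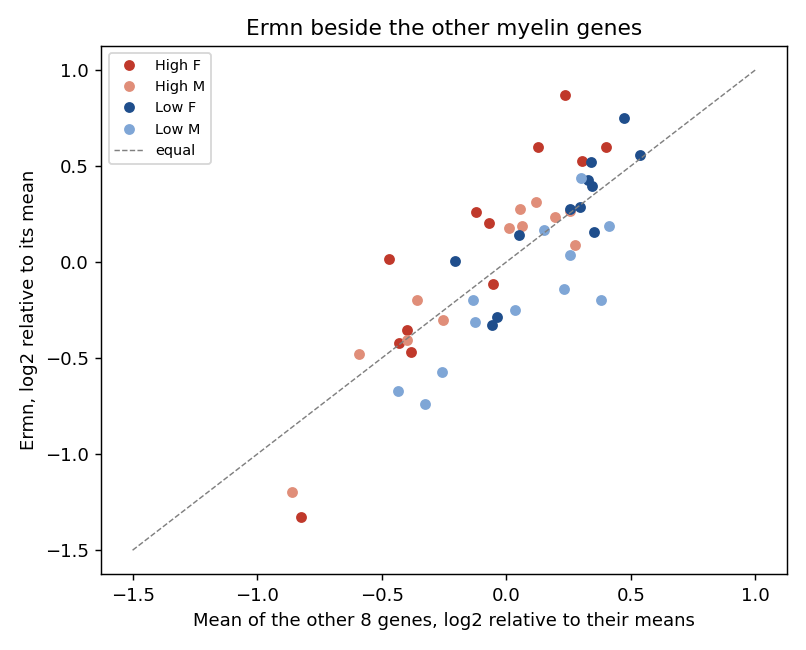
Each point is a mouse; the horizontal axis is the mean of the other 8 myelin genes and the vertical axis Ermn, both as log2 relative to the gene means, and the dashed line marks equality. In 21 of 24 High mice the difference of these values is above the Low median, with overlap.

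Exon values of the members were compared next, to ask whether parts of a gene differed by line or gender. Of 14702 genes with at least a pair of exons kept, limma's diffSplice called 0.51% for line and 0.17% for gender (Simes p per gene, Benjamini-Hochberg adjusted). These are 75 and 25 genes, and with each exon's own spread 2 and 5 genes were called. No member was called for line (adjusted p = 0.997 for each) or gender (adjusted p = 0.998 for each). The last exon held 89.8% ± 4.0 of the gene's count for Ermn, 87.1% ± 6.2 for Ugt8a, 78.2% ± 4.5 for Cldn11, 77.1% ± 2.9 for Mbp and 70.7% ± 3.2 for Mobp (SD, n = 48). It held 65.2% ± 6.8 for Opalin, 54.8% ± 6.5 for Mog and 31.7% ± 4.3 for Mag. Counts were also pooled over all genes with more exon rows than Ermn or Cldn11 have, so these members lie outside that set. There the last exon held 53.2% ± 2.7 of the pooled count in High and 52.8% ± 2.5 in Low mice (SD, n = 24 each). Mog was near that level and Mag below it. These shares are not corrected for length. Per base, the last exon of Ermn had 0.0384 counts beside 0.0627 in exon 2, that of Mag 0.435 beside 0.702 in exon 11, and that of Cldn11 0.318 beside 0.313 in exon 2. First exons averaged 0.583 counts in Mag, 0.438 in Ugt8a and 1.46 in Opalin, but 8.54 in Mog and 16.5 in Mobp.

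Mbp also makes golli transcripts, which start further upstream and are found in neurons and immune cells too. The 4 exon rows upstream of the exon starting at 82723712 (mm9) averaged between 1.58 and 3.42 counts each, and together held 0.180% ± 0.113 of Mbp in High and 0.154% ± 0.107 in Low mice (SD, n = 24 each). The exon with the smallest p for line was among them, at 82682375, with 3.92 ± 3.16 counts in High and 2.83 ± 1.83 in Low mice (p = 0.0121, exon adjusted p = 1). No difference was detectable at such counts. The 78-base exon, which is included mainly in the Mbp of developing oligodendrocytes, had 0.160 ± 0.038 times the per-base count of the constitutive 102-base exon in High mice and 0.162 ± 0.043 in Low mice. The alternative 123-base exon had 0.175 ± 0.025 times in High and 0.179 ± 0.031 in Low mice (SD, n = 24 each). A 36-base exon counted the same way stood at 1.81 ± 0.13 in High and 1.78 ± 0.08 in Low mice, so that such ratios for short exons are not inclusion rates. For each of the 3 exons the lines differed by less than the spread between mice.

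Mag has a 45-base exon before its last one that carries a stop codon and, when included, gives the short cytoplasmic tail of S-MAG in place of that of L-MAG. Its coding bases are shown because this exon sets the isoform, from GENCODE M21 (GRCm38) with the stop codon in capitals, on the minus strand.
Mag 45-base exon, chr7:30900364-30900396, first 33 bases: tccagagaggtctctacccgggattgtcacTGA
The exon averaged 23.5 ± 6.5 counts in High and 25.5 ± 8.3 in Low mice. Its per-base count over that of the exon before it was 0.502 to 1.30 (mean 0.843 ± 0.168) in High mice and 0.333 to 1.19 (mean 0.742 ± 0.195) in Low mice (SD, n = 24 each), with wide overlap. As a share of Mag, with each exon's own spread, the log2 difference between the lines was 0.19 (limma p = 0.0517, adjusted p = 1.00). In the same comparison the Opalin exons starting at 41142147 and 41140989 (mm9) had the smallest p among members, with log2 share differences of -0.22 (limma p = 0.0309) and -0.24 (limma p = 0.0314) and adjusted p = 1.00 for both. The first of these held 13.0% ± 3.3 of Opalin in High and 14.8% ± 2.6 in Low mice.

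Cnp carried an exon that did not behave as the rest of the gene. The row starting at 100452581 (mm9, chromosome 11) matches a 463-base exon of Cnp-202, a transcript with no annotated protein, and held 20.6% ± 4.4 of Cnp in High and 19.1% ± 4.1 in Low mice. It encloses a whole 154-base coding exon of Dnajc7, a co-chaperone gene on the opposite strand. The shared bases, in capitals with 15 more on each side, are shown on the Cnp strand (GENCODE M21, GRCm38) because reads from them can be counted for either gene.
Cnp-202 and Dnajc7, chr11:100591397-100591580, plus strand: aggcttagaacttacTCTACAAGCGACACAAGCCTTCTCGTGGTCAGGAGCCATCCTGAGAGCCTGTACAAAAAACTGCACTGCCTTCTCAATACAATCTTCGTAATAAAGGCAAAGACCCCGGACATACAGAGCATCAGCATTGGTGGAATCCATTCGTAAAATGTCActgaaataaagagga

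Over the 48 mice this exon correlated at r = -0.24 with the other 8 members, at -0.32 with the rest of Cnp and at 0.76 with Dnajc7, which averaged 4816 ± 532 counts. The Dnajc7 exon inside it had nearly the same mean count, 373 ± 48.5 beside 380 ± 45.2 for the Cnp row (SD, n = 48), and the counts were within 5% of each other in 26 mice. They were equal in only 1 mouse and correlated at r = 0.77. Their difference ran from -65 to 72 counts, so each was the higher in some mice. Without this exon, Cnp averaged 1491 ± 302 counts in High and 1676 ± 290 in Low mice (SD, n = 24 each). Its log2 line difference was then -0.18 ± 0.08 (limma adjusted p = 0.455) beside -0.15 ± 0.06 (limma adjusted p = 0.386) for the deposited value. Its within-group SD was 0.28, at the 62.3rd percentile, and its r with the other 8 members was 0.91 beside 0.90.

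Of the 59 member exons with a mean of at least 1 count, 41 correlated with the other 8 members at r above 0.5. Among exons with a mean of 50 counts or more, r lay between 0.41 (the Mag exon starting at 31696420) and 0.93 (the last Cldn11 exon) except for the Cnp exon over Dnajc7. The exons of low count had lower r, down to an upstream exon of Mbp below 0.

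**Figure D5:**
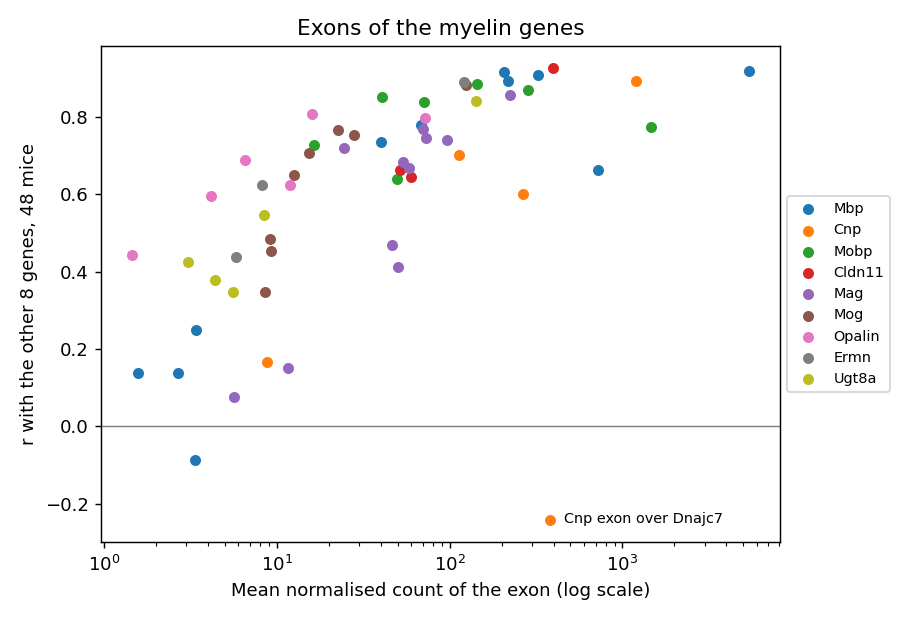
Each point is an exon of a myelin gene with a mean of at least 1 count; the horizontal log axis is its mean normalised count and the vertical axis its correlation over 48 mice with the other 8 genes, after removal of group means. The Cnp exon over Dnajc7 stands alone among the strongly counted exons, at r = -0.24.

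Other genes of the lineage were set beside the members by the mean of the standardised log2 values of each list, and the following correlations are descriptions across the 48 mice after removal of group means. Other mature oligodendrocyte genes followed the members at r = 0.90 (rho = 0.88, 22 of 24 genes tested), and other myelin protein genes at 0.82 (rho = 0.76, 14 of 14). The transcription factors of the lineage had r = 0.76 (rho = 0.72, 11 of 11) and myelin lipid genes 0.72 (rho = 0.69, 7 of 7). Genes of newly formed oligodendrocytes had 0.48 (rho = 0.44) and genes of precursors 0.17 (rho = 0.22). By list, the values thus decreased in the order of mature, newly formed and precursor cells. Single genes followed the members less closely. The median r of a gene was 0.56 for mature, 0.17 for newly formed and 0.03 for precursor genes, beside 0.33 for transcription factors and 0.27 for astrocyte genes. An r above 0.5 was found for 13 mature genes, 4 transcription factors and 1 newly formed gene. Astrocyte genes stood at 0.36 (rho = 0.38), ependyma and choroid plexus at 0.32, cholesterol synthesis at 0.27, microglia at 0.26, endothelium at 0.24, cortical pyramidal neurons at 0.19, node and paranode at 0.11, spiny neurons at 0.01 and septal and diencephalic genes at -0.09.

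Among 11853 tested genes with a mean of at least 5 ppm, 65 had r above 0.5 with the members' mean and the median was 0.04. Among the most alike were Mal (r = 0.90, rho = 0.89), a proteolipid of the sheath, and Tmem88b (r = 0.83, rho = 0.82). Enpp2 (0.82), which makes lysophosphatidic acid, was followed by Lpar1 (0.81), a receptor for it. Trf (0.80) carries iron, Tspan2 (0.78) is a tetraspanin of myelin, Gm20425 (0.78) is a predicted gene, Myrf (0.75) is the myelin regulatory factor and Gpr37 (0.75) is an oligodendrocyte receptor. Without the 2 mice farthest from the median level, these values lay between 0.68 and 0.87. The 5 genes with the lowest r were Enkd1 (-0.55), Slc26a6 (-0.54), Tor2a (-0.54), Itfg2 (-0.53) and Dnah2 (-0.53), and they ran from -0.49 to -0.41 without these mice.

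Between the lines, no gene of the 15 other lists was called by limma. Of all genes tested, 51.5% were lower in High mice and 9.07% had an unadjusted limma p under 0.05. Genes of a list can vary together between mice, so the counts of direction below are not counts of separate observations. Other myelin protein genes were lower in High mice in 13 of 14 cases (median log2 difference -0.11, 2 with an unadjusted p under 0.05). The axonal contactin Cntn2 had 351 ± 77.6 counts in High and 410 ± 105 in Low mice (SD, n = 24 each; limma adjusted p = 0.457). Myelin lipid genes were lower in 6 of 7 cases (median -0.10), with Cers2, a ceramide synthase, at -0.11 and Aspa, aspartoacylase, at -0.22. The transcription factors were lower in 10 of 11 cases (median -0.11), with Zfp536 at -0.22 and Myrf at -0.18.

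Other mature oligodendrocyte genes were lower in 16 of 22 cases (median -0.06). Apod, an apolipoprotein, went the other way, with 626 ± 111 counts in High and 524 ± 115 in Low mice (SD, n = 24 each, limma adjusted p = 0.172). S1pr5, a sphingosine phosphate receptor, was lower, with 32.0 ± 8.8 in High and 40.5 ± 11.0 in Low mice (limma adjusted p = 0.314). Newly formed oligodendrocyte genes were lower in 6 of 10 cases, with Bcas1 at -0.12 and Itpr2 at 0.13. Precursor genes were higher in 6 of 9 cases, with Emid1 at -0.25 and Cdo1 at 0.11.

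Astrocyte genes were higher in High mice in 10 of 10 cases (median log2 difference 0.10), with Gjb6 at 0.16 and S100b at 0.26. Summed astrocyte counts ran from 27740 to 45010 in High and 30028 to 40587 in Low mice, and their part in the line differences of the members was not tested. Cholesterol synthesis genes were higher in 6 of 9 cases, with Idi1 at 0.16, and node and paranode genes in 4 of 8, with Cntnap2 at 0.12 and Kcna1 at 0.06. Microglia genes were lower in 7 of 10 cases, with C1qc at 0.43 and Trem2 at -0.18, endothelial genes in 7 of 8, with Slco1a4 at -0.17 and Ly6c1 at -0.45, and spiny neuron genes in 7 of 12, with Pdyn at 0.13 and Rgs9 at -0.14. Of the cortical pyramidal genes 2 of 7 were tested, Slc17a7 at -0.63 and Rasgrf2 at 0.29. Of the septal and diencephalic genes 2 of 3 were tested, Zic1 at -0.03 and Zic4 at 0.04, and of the ependyma and choroid plexus genes 3 of 5, all higher, with Kl at 0.35 and Ccdc153 at 0.15. Hmgcs1 and Lhfpl3 were not analysed here.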

How the data were processed

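Genes and exons were deposited by the authors in separate files, each library as a column. These deposited numbers were handled as a score: whole numbers whose near-equal sums and file names mark them as normalised read counts. STAR 2.4.0, edgeR 3.4.2, R 3.0.2, FastQC and CASAVA, and the mm9 build, are named per the submitters' processing notes. Counter, strand setting, annotation and scaling method, not given in the sources used here, stay unnamed, and no count model was fitted.

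Genes at 1 ppm of the mean column total (14.1 counts) or more in 12 libraries were kept and tested with limma 3.58.1 (R 4.3.3, data.table version 1.17.8) on log2(value + 0.5 ppm) with a mean-variance trend, 1 mean per line and gender group and all 48 libraries in 1 fit. Fold changes on this scale understate those of weak genes. Exons at 0.1 ppm in 12 libraries were compared with diffSplice at a pseudocount of 0.05 ppm. In a test on simulated data diffSplice called too many unchanged genes, and the share of each exon with its own spread was added. Exon rows carry only a start on mm9; lengths and transcripts came from GENCODE M21 by the spacing of starts within the gene, and no coordinate was converted. Symbols were found for 32897 genes.

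Named genes were all members, in each other list the called genes or else the 2 with the smallest p, and the 10 genes most and 5 least correlated with the members; a few genes that this rule names are not reported here. The 9 members, the 15 other lists and the tests were chosen with earlier results of these data known. Replicate numbers follow the order of listing and only name the mice. Descriptions and figures used Python 3.11.15, numpy 2.4.6, pandas 2.3.3 and matplotlib 3.10.9.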

Additional observations from a re-analysis of the deposited data

How the results depend on the processing

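No member was called for line, for line within a gender, for the gender difference of the line effect, for gender, for spread or for exon usage under any alternative run: pseudocounts of 0.1 and 2 ppm, no filter or one of 5 ppm, quantile and median-of-ratios scaling, array weights, a cortical pyramidal covariate, removal of High M replicate 1, and Cnp without the Dnajc7 exon (a subset for spread and exons). Cnp without that exon, the exon's own spread and every alternative at equal level were chosen after seeing the data. The line difference of Opalin stayed between -0.42 and -0.33 (adjusted p 0.127 to 0.226) and that of Ermn between -0.07 and -0.01. The scaling alternatives left the median of all genes within 0.01 of 0. All 36 pairs of members passed under each alternative tested. At equal level of the other members, 0 members in place of 1 were called for line without High M replicate 1 (Ermn 0.27, adjusted p = 0.0531). At equal level, Cnp turned to 0.0083 for line without the Dnajc7 exon, Cldn11 to -0.000587 for gender with a pseudocount of 2 ppm and Mobp to -0.00445 for gender without High M replicate 1, all near 0.

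Counts over all genes moved more. For line, 43 genes became 80 with array weights; in females, 4 became 2 with no filter and 7 with array weights; at equal level, 66 became 43 with the 5 ppm filter. Exon usage by line fell to 31, 20 and 2 genes, against 75, with a larger pseudocount, a 1 ppm filter and each exon's own spread, and by gender to 10, 9 and 5, against 25. No paired analysis was possible because the labels pair no mice. Depth before normalisation is unknown, and exons of a few counts cannot show differences of the size seen between lines.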
